A study of Mus musculus with 12 samples.

Results

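The nuclear genes of oxidative phosphorylation were followed across age in hippocampal microglia and in whole hippocampus of C57BL/6 mice. Genes were taken by symbol: Ndufa, Ndufb, Ndufc, Ndufs and Ndufv genes, Sdha to Sdhd, the Uqcr genes, Cyc1, Cycs, Cox4 to Cox8 and the Atp5 genes. This gave 97 of the 29957 named genes of the microglia table and 92 of the 14663 of the hippocampus table. The symbols were sorted by complex, which put 44 genes in complex I, 4 in complex II, 9 in complex III, 20 in complex IV and 19 in complex V, with cytochrome c by itself. The symbol rule also takes 8 complex I assembly factors and 3 Atp5l pseudogenes. A total of 86 members passed the filter on low counts in microglia, and 91 passed the filter in hippocampus.

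Microglia are the brain's own macrophages. They were sampled at 3 months and at 24 months of age, with 3 libraries each. Whole hippocampus was sampled at 6 months and at 18 months, also with 3 libraries each. The labels give no genotype beyond the strain and no treatment, and do not state by which method microglia were obtained or whether each sample was a different mouse. Each p-value below therefore reflects the spread among these samples, which may be technical. RNA was copied from its poly(A) tail and amplified by PCR before sequencing, and no molecular identifiers are named.

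Oxidative phosphorylation makes ATP in the inner mitochondrial membrane. Complex I takes electrons from NADH and complex II takes them from succinate, and ubiquinone carries both to complex III. Cytochrome c then shuttles them to complex IV, which reduces oxygen, and complex V uses the resulting proton gradient to make ATP. Complexes I, III, IV and V combine nuclear subunits with subunits encoded in mitochondrial DNA, whereas complex II is wholly nuclear. In the brain most of this capacity serves neurons, and microglia can draw on both glycolysis and oxidative phosphorylation.

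Before the results, the state of the libraries was examined. Microglia libraries held between 8068023 and 14217142 estimated counts, and the median tested member had between 678 and 1166.5 counts in a library. The hippocampus table holds normalized counts only, and depth is unknown there. Replicate 1 of the 3 month microglia stood apart. In it 20 of 86 members (23.3%) lay more than 2-fold from the median of the other 5 libraries, 12 below and 8 above, against 2 to 10 members in each of the other libraries. Over all tested genes that share was 48.9% in the same library, 41.5% in replicate 1 of the 24 month group and 22.4% to 28.2% in the other 4. Replicate 1 of the 24 month group thus also stood apart, with 10 of 86 members that far out and all-gene correlations of 0.647 to 0.790, against 0.647 to 0.749 for the young library. Across members the log2 levels of that young library correlated with those of the other libraries at Pearson's r of 0.604 to 0.717, against 0.806 to 0.935 among the rest. In hippocampus 2 to 9 of 91 members lay that far out in a sample. The 9 microglial markers summed to between 65460 and 69320 CPM (a gene's estimated count relative to the scaled library size) at 3 months and 46470 to 62510 CPM at 24 months, while the 6 neuronal markers reached at most 17.1 CPM. All 6 neuronal markers were tested in hippocampus, where they summed to between 6562 and 7238 normalized counts. Summed markers of some other cells also differed with age. In microglia the 6 astrocyte markers summed to 11.6 to 20.4 CPM at 3 months and 47.74 to 75.03 CPM at 24 months, and the 6 endothelial markers to 23.5 to 45.0 CPM and 51.8 to 132.8 CPM. All 3 tested astrocyte markers had a higher mean, but only Aldoc had separate groups (0.149, 10.85 and 5.65 CPM, then 39.6, 44.3 and 18.0 CPM). Aqp4 was at 0 in all old libraries. Neither of the 2 tested endothelial markers had separate groups. In replicate 3 of the 24 month group Pecam1 alone gave 66.17 of the 66.36 CPM. In hippocampus the 4 red cell markers summed to 39.3 to 49.6 normalized counts at 6 months and 103.6 to 306.7 at 18 months, and 3 of the 4 had separate groups. In the authors' deposited table Hba-a2, an alpha globin gene, had an adjusted p of 3.64e-05. The part of these cells in the members' values was not tested.

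**Figure D1:**
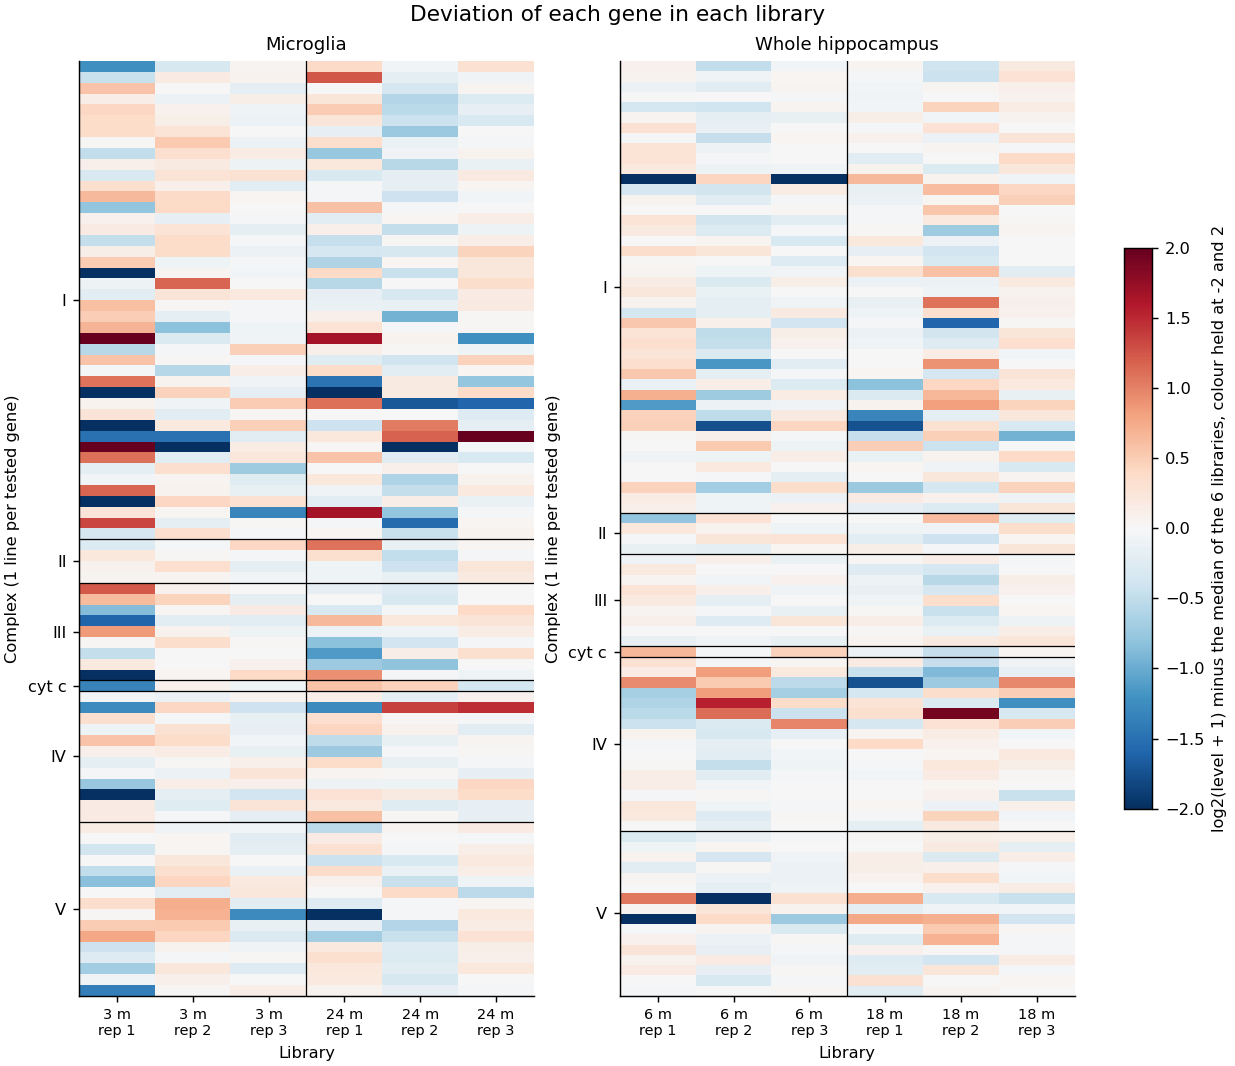
Each line is a tested gene, grouped by complex, and each column a library, with colour for log2(level + 1) minus the median of the 6 libraries (CPM in microglia, normalized counts in hippocampus; colour held at -2 and 2). The left column, replicate 1 of the 3 month microglia, carries the strongest colours, with 20 of 86 genes more than 2-fold from the other libraries.

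No member changed with age past the threshold in either tissue. In microglia edgeR's quasi-likelihood test called 0 of 86 members and 0 of 10663 genes at adjusted p under 0.05 (a background of 0%). Before adjustment, 0 members and 5.53% of all genes had p under 0.05 (3.52% higher, 2.02% lower), and DESeq2 likewise had 0 members at that level. The other tests and settings gave 0 to 3 members at that level. There were 3 with limma-voom and sample weights (Cyc1, Ndufaf5 and Uqcrc1) and 2 in the authors' deposited table (Atp5sl and Cox7b). A single member had such a p with no filter or without replicate 3 of the 24 month group (Uqcrc1 in both), and with the replicate number as a block or without replicate 3 of the 3 month group (Ndufaf5 in both). The median member was at -0.10 on the log2 scale (24 minus 3 months) against 0.01 over all genes tested. A total of 35 members had a higher fitted mean at 24 months and 51 a lower one, where 50.5% of all genes were higher. The authors' deposited table calls 243 genes (2.01%) in this comparison, none of them a member, and the smallest adjusted p of a member in it is 0.342.

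In hippocampus limma's moderated test called 0 of 91 members and 0 of 13491 genes at adjusted p under 0.05 (a background of 0%). Before adjustment, 5 of 91 members had p under 0.05, 3 higher and 2 lower, against 5.37% of all genes (2.13% higher, 3.24% lower). That count was 1, for Ndufa9 alone, without replicate 2 of the 18 month group, 3 without replicate 1 or replicate 3 of the 6 month group, and 7 in the authors' deposited table. The summed red cell markers given above were higher in every 18 month sample, although 1 of the 4, Alas2, overlapped between ages. Their part in these values was not tested. The median member was at 0.04 on the log2 scale against -0.04 over all genes. A total of 55 members were higher and 36 lower, where 47.2% of all genes were higher. The authors' deposited table calls 36 genes (0.305%) here, again none of them a member, with a smallest adjusted p of 0.345 for Cycs.

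The intervals say how large a change these samples could have hidden. For 71 of 91 members in hippocampus (78%) the 95% confidence interval of the log2 change lay within 1 unit of 0, that is within 2-fold, against 25.1% of all genes. In microglia this held for 33 of 86 members (38.4%) against 11.1% of all genes. Members were measured more tightly than most genes, with a median standard error of 0.38 against 0.89 in microglia and 0.20 against 0.57 in hippocampus. Their levels were also higher, with a median of 82.6 CPM against 26.7 CPM and of 196.2 against 25.8 normalized counts.

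**Figure D2:**
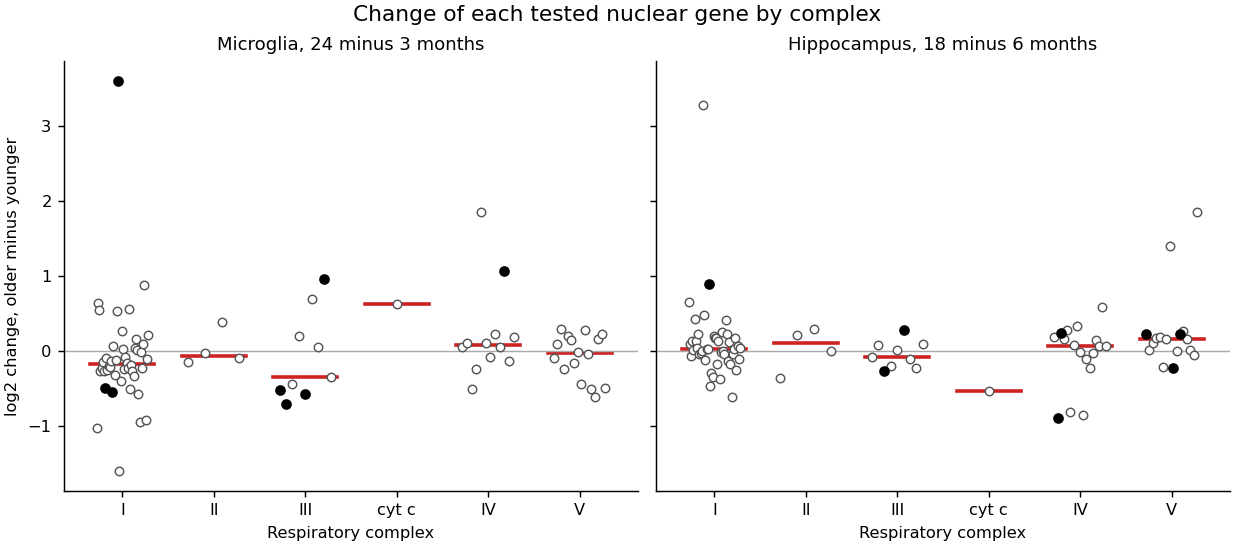
Each point is a tested gene, placed by complex (x axis) and by its log2 change, older minus younger (y axis). Red bars are medians and filled points are the genes whose 2 age groups do not overlap. Most points lie within 1 log2 unit of 0 in both tissues, and 4 of the 9 complex III genes are filled in microglia.

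Complex I, the NADH dehydrogenase, holds the largest group. In microglia 14 of its 44 members were higher and 30 lower at 24 months, with a median of -0.17. The 7 core subunits, which carry the flavin and the iron-sulphur clusters, were split 4 to 3, with a median of 0.01. The 29 accessory subunits, which surround and stabilise the core, leaned to the lower side with 7 higher and 22 lower and a median of -0.20. None of these 44 had an unadjusted p under 0.05. The summed level of complex I was 3368 ± 252 CPM in the young libraries and 3045 ± 443 CPM in the old (SD, n = 3). The lowest sum, 2556 CPM, belonged to replicate 2 of the 24 month group, and the groups overlapped.

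Only 2 accessory subunits and 1 assembly factor of complex I had age groups without overlap in microglia. Over all members 8 of 86 (9.30%) did, 3 higher and 5 lower, against 13.4% of all genes tested (7.26% higher, 6.18% lower). Ndufa3, an accessory subunit, was at 157, 147 and 122 CPM at 3 months and 109, 72.9 and 122 CPM at 24 months. The lowest young library lay just above the highest old one, and the fitted change was -0.49 ± 0.27 (SE; adjusted p = 0.967). Ndufab1, the mitochondrial acyl carrier protein that also sits in complex I, was at 164, 136 and 108 CPM and then at 102, 78.0 and 100 CPM. Its 3 old libraries were all lower, with a change of -0.55 ± 0.27 (adjusted p = 0.958). Ndufaf5, a methyltransferase needed for complex I assembly, was listed at 0, 0 and 1.43 CPM and then at 2.22, 5.35 and 10.5 CPM. These are 0, 0, 21, 21, 53 and 111 estimated counts. Ndufaf5 had the lowest TPM of the tested complex I members, and its fitted change was 3.60 ± 1.98 (adjusted p = 0.967).

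The core subunits differed in how evenly they were measured. Ndufs1, the largest iron-sulphur subunit, was at 84.9, 122 and 58.6 CPM and then at 96.3, 103 and 96.4 CPM, with all old values inside the young range. Ndufv1, which binds NADH, was at 238, 82.2 and 95.4 CPM and then at 91.4, 31.6 and 95.9 CPM. Here 1 high young library and 1 low old library set the difference of -0.93 ± 0.56 (adjusted p = 0.973). Ndufs7, the last iron-sulphur protein before ubiquinone, stood at 12.0 CPM in replicate 1 of the 3 month group and at 100 to 157 CPM in the other 5 libraries. Ndufb8, an accessory subunit, was at 154 ± 25.6 CPM and 135 ± 24.1 CPM (SD, n = 3), a difference smaller than either spread.

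Replicate 1 of the 3 month group gave the lowest Ndufaf4 and the highest Ndufs4. The lowest Ndufaf1 was in replicate 1 of the 24 month group. Ndufaf1, which helps build the membrane arm, was at 1.19, 28.8 and 18.0 CPM at 3 months and 0, 23.4 and 27.0 CPM at 24 months, so 1 library of each age was near 0. Ndufaf4 was listed at 0, 22.7 and 27.8 CPM and then at 14.5, 41.7 and 17.2 CPM. Ndufs4, an accessory subunit, was at 51.5 CPM in that young library and at 2.28 to 23.2 CPM in the others. These genes stood at widely different levels in libraries of the same age, and their standard errors ran from 1.31 to 1.81.

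In hippocampus complex I was close to even, with 26 members higher and 18 lower at 18 months and a median of 0.02. It held the 3 members that were higher at an unadjusted p under 0.05 (2.13% of all genes were). Ndufaf4 was at 21.3, 43.9 and 45.1 normalized counts at 6 months and at 50.3, 85.0 and 64.9 at 18 months. All 3 old samples lay above all 3 young ones, with a change of 0.89 ± 0.39 (limma, unadjusted p = 0.0375, adjusted p = 0.905). Ndufa13, an accessory subunit also known as a cell death regulator, was at 216, 210 and 287 and then at 269, 379 and 308. The groups overlapped, since the highest young sample exceeded the lowest old one (0.42 ± 0.19, unadjusted p = 0.0453, adjusted p = 0.909). Ndufa9, an accessory subunit at the junction of the complex's arms, was listed at 0, 36.9 and 0 and then at 43.0, 28.4 and 25.7. The fitted change of 3.28 came from 2 young samples listed at 0 for a gene at 25.7 or more in every other sample (adjusted p = 0.877).

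Over complex I in hippocampus, 33 of 44 intervals lay within 1 log2 unit of 0. The means of Ndufs1, Ndufv1 and Ndufb8 sat near their young levels. Ndufs1 was at 274 ± 66.2 and 254 ± 81.4 normalized counts (SD, n = 3 each). Ndufv1 was at 282 ± 29.1 and 295 ± 28.2, and Ndufb8 at 326 ± 51.1 and 325 ± 42.7. For these 3 genes the interval of the change excluded a 2-fold difference in either direction, the widest running from -0.64 to 0.38 for Ndufs1. Ndufab1, lower without overlap in old microglia, was at 165, 163 and 233 normalized counts at 6 months and 189, 321 and 281 at 18 months in hippocampus. Its groups overlapped there and the change had the opposite sign (0.48 ± 0.23, adjusted p = 0.909).

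Complex II, succinate dehydrogenase, links the citric acid cycle to the respiratory chain. In microglia its flavoprotein gene Sdha was at 344, 410 and 287 CPM at 3 months and 306, 244 and 386 CPM at 24 months. The iron-sulphur gene Sdhb was at 294, 293 and 272 CPM and then at 265, 254 and 319 CPM. Neither pair of groups was separated, and for Sdhb the interval of the log2 change ran only from -0.46 to 0.39. The membrane anchors Sdhc and Sdhd had changes of 0.38 ± 0.40 and -0.10 ± 0.26. Sdhc owed its sign to replicate 1 of the 24 month group, at 179 CPM against 69.5 to 111 CPM elsewhere.

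In hippocampus the 2 catalytic genes of complex II differed in opposite directions. Sdha was at 654, 790 and 808 normalized counts at 6 months and 572, 503 and 685 at 18 months. All but 1 of the old samples lay below all young samples, with a change of -0.36 ± 0.15 (limma, unadjusted p = 0.0347, adjusted p = 0.890). Sdhb was at 322, 313 and 365 and then at 387, 350 and 423, with overlapping groups and a change of 0.21 ± 0.16 (adjusted p = 0.917). The ratio of Sdha to Sdhb within a sample was 2.03, 2.52 and 2.21 at 6 months and 1.48, 1.44 and 1.62 at 18 months, with no overlap. An exact two-sided permutation test gave p = 0.1, the smallest that 3 samples against 3 can give, and 0.4 after adjustment over the 8 ratios examined. This is a ratio of counts, not of molecules per length. In microglia the same ratio was 1.17, 1.40 and 1.06 in the young libraries and 1.16, 0.960 and 1.21 in the old, with overlap.

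**Figure D3:**
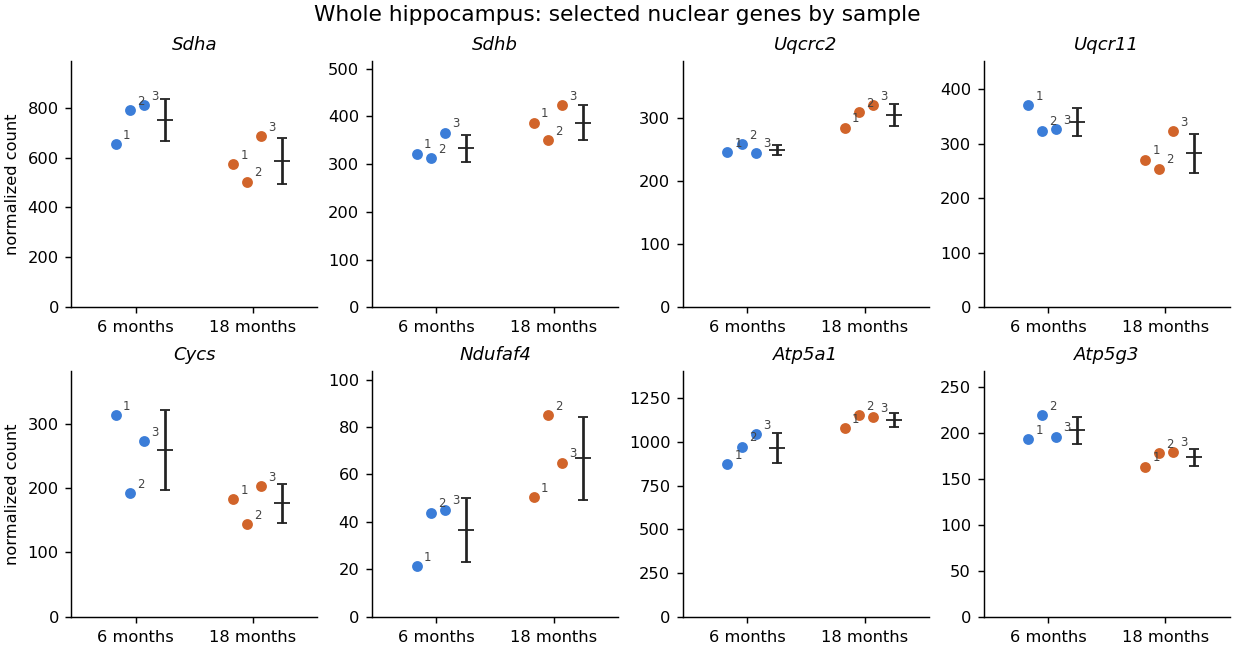
Normalized counts of 8 nuclear genes in each whole hippocampus sample (y axis) at 6 and 18 months (x axis); points are samples with their replicate number, and the bar beside them is the mean with its SD (n = 3). Sdha and Sdhb differ in opposite directions, Uqcrc2, Ndufaf4 and Atp5a1 lie higher and Uqcr11 and Atp5g3 lower in all 3 old samples, and Cycs overlaps.

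Complex III, the cytochrome bc1 complex, had the most negative median of the complexes in microglia, at -0.34 with 4 members higher and 5 lower. Of its 9 genes 4 had groups without overlap, 1 higher and 3 lower, where 7.26% of all genes were higher and 6.18% lower without overlap. Uqcrc1, a core protein of the matrix side, was at 476, 419 and 441 CPM at 3 months and 251, 237 and 412 CPM at 24 months. The old libraries were all lower, 2 of them by much and replicate 3 by little, and the change was -0.57 ± 0.25 (edgeR, unadjusted p = 0.0528, adjusted p = 0.899). Cyc1, the cytochrome c1 subunit that hands electrons to cytochrome c, was at 104, 131 and 103 CPM and then at 57.3, 78.0 and 100 CPM. Here too replicate 3 of the old group lay closest to the young libraries (-0.52 ± 0.30, adjusted p = 0.973). With 1 library left out at a time the change of Uqcrc1 ran from -0.89 to -0.43. The strongest was without replicate 3 of the old group, the old library nearest the young ones (edgeR, adjusted p = 0.145).

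The 2 older libraries with the lowest Uqcrc1 also differed from the rest in other ways. Replicates 1 and 2 had the lowest microglial marker sums, 46470 and 46930 CPM against 62510 CPM in replicate 3. They also had the highest sums of the 13 mitochondrially encoded mRNAs, 9061 and 8972 CPM against 3195 CPM in replicate 3 and 2501 to 3044 CPM at 3 months. Replicate 1 held 2107 CPM of 6 neutrophil and monocyte markers and 288 CPM of 6 mural cell markers, against at most 48.8 and 38.8 CPM in any other library. Nearly all of the first sum came from S100a8, Ngp and S100a9 (1289, 491 and 319 CPM), with Ly6g at 0 and Ccr2 at 0.529 CPM. Nearly all of the second came from Acta2 and Tagln (215 and 64.4 CPM), with Pdgfrb and Kcnj8 at 0. The part of these differences in the complex III values was not tested. In bulk samples of either kind, fewer cells of a type and less RNA per cell cannot be told apart.

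Among the small subunits of complex III, Uqcr10 and Uqcrh differed in opposite directions. Uqcr10 was at 156, 70.2 and 66.4 CPM at 3 months and 58.3, 55.1 and 65.1 CPM at 24 months. The separation was narrow and the mean difference rested on the high first library, which was -0.71 with it and -0.20 without it. Uqcrh, the hinge protein that helps cytochrome c1 meet cytochrome c, was at 20.0, 54.1 and 53.2 CPM and then at 99.2, 72.4 and 74.8 CPM. All old libraries were higher (0.95 ± 0.46, adjusted p = 0.958), also against the 2 young libraries other than replicate 1.

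The other complex III genes showed overlap in microglia. Uqcrfs1, the Rieske iron-sulphur protein, was at 69.7, 97.4 and 97.4 CPM and then at 43.8, 107 and 122 CPM. Uqcrb had a change of 0.20 ± 0.38, but 54.3% of the 31-base words of its transcripts also occur in other annotated genes, so its value is uncertain. Uqcrc2, the partner of Uqcrc1, was at 0.448 CPM (6 estimated counts) in replicate 1 of the 3 month group, against 103 to 206 CPM in the other 5 libraries. Its fitted change of 0.69 became -0.29 once replicate 1 of both ages was left out. With that same young library left out, the median of complex III was -0.10.

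**Figure D4:**
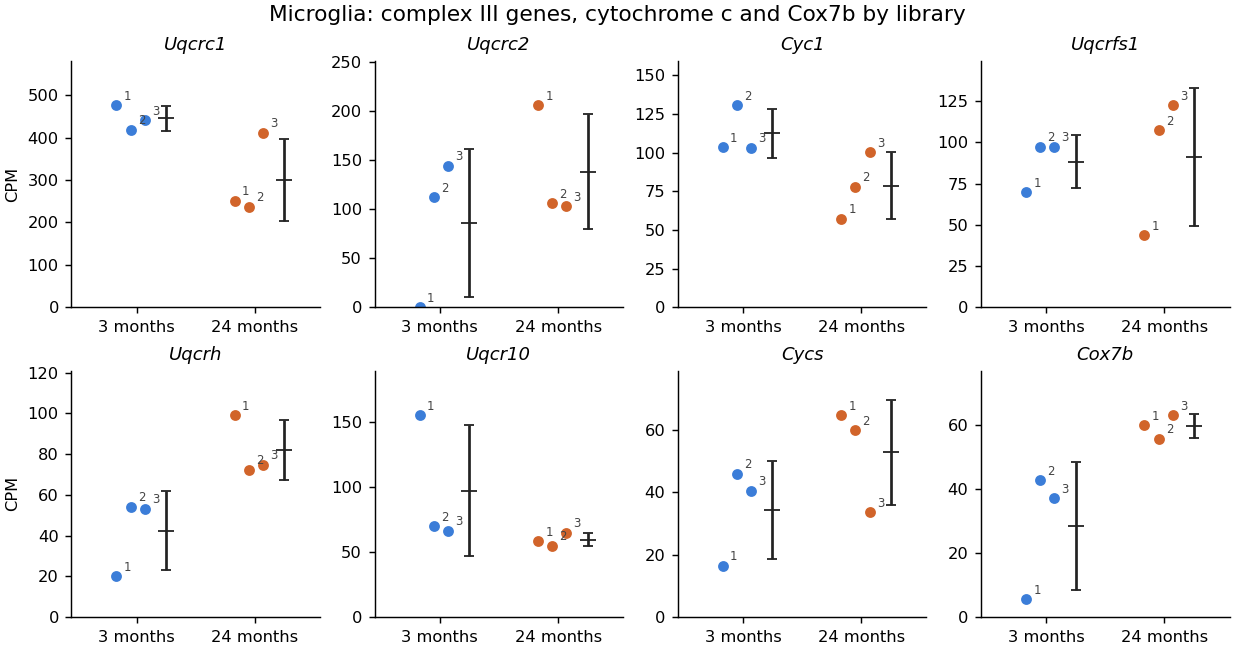
CPM of 6 complex III genes, cytochrome c and Cox7b in each microglia library (y axis) at 3 and 24 months (x axis); points are libraries with their replicate number, and the bar beside them is the mean with its SD (n = 3). Uqcrc1, Cyc1 and Uqcr10 lie lower and Uqcrh and Cox7b higher in all old libraries, and Uqcrc2 is near 0 in replicate 1 of the 3 month group.

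In hippocampus complex III was split 4 to 5 with a median of -0.09, and each of its 9 intervals lay within 1 log2 unit of 0. In that tissue 8 of 91 members had groups without overlap (8.79%), 5 higher and 3 lower, against 11.0% of all genes (5.03% higher, 5.93% lower). Uqcrc2 was at 246, 259 and 245 normalized counts at 6 months and 285, 309 and 320 at 18 months. The young samples were tight and all old samples lay above them, with a change of 0.28 ± 0.16 (adjusted p = 0.909). Uqcrc1 was at 563, 570 and 563 and then at 574, 517 and 618, with no difference in the mean (0.01, interval -0.29 to 0.30). The ratio of Uqcrc1 to Uqcrc2 was 2.29, 2.20 and 2.30 at 6 months and 2.01, 1.67 and 1.93 at 18 months, without overlap (exact two-sided permutation p = 0.1, 0.4 after adjustment). Uqcr11, the smallest subunit, was at 370, 324 and 327 and then at 270, 254 and 323, just below the young range in its highest sample (-0.27 ± 0.16, adjusted p = 0.913). Cyc1 and Uqcrfs1 were at changes of -0.09 ± 0.18 and -0.11 ± 0.19.

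Cytochrome c itself, from the somatic gene Cycs, is a soluble electron carrier that also triggers caspase activation when it leaves mitochondria. It had the lowest unadjusted p among the members that were not listed at 0 in any hippocampus sample. Cycs was at 313, 192 and 272 normalized counts at 6 months and 183, 144 and 203 at 18 months. The old samples were lower except that replicate 3 lay above replicate 2 of the young group. The change was -0.54 ± 0.22 (limma, unadjusted p = 0.0270, adjusted p = 0.877; 95% interval -1.01 to -0.07). In microglia Cycs was at 16.4, 46.0 and 40.5 CPM at 3 months and 64.8, 59.9 and 33.7 CPM at 24 months. The groups overlapped and the sign was the opposite one (0.62 ± 0.56, adjusted p = 0.993). Of its 31-base words 31.8% occur in other genes, as processed copies of cytochrome c are common in rodent genomes.

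Genes of the respiratory chain are known targets of the transcription factors NRF1 and NRF2 (GABP, an ETS family factor), and so their promoters were searched for a core of each. RefSeq promoters (GRCm38.p6) were matched for 77 of the 97 members, each from 250 bases before to 50 bases after the start. The letters GCATGCG, a core of the NRF1 motif, were found on either strand in 14 of them (18.2%), against 7.8% of the genes tested in microglia and 4.0% of all promoters of the table. The letters CCGGAAG, an ETS core, were in 17 (22.1%), against 22.1% and 9.9%. By complex, the NRF1 core was in 5 of 39 promoters of complex I, 1 of 3 of complex II, 2 of 5 of complex III, 1 of 14 of complex IV and 4 of 15 of complex V. The remaining 1 of the 14 is Cycs.

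The 150 bases before the start are shown for the members that hold a core there and that either had separate age groups or an unadjusted p under 0.05 in a tissue. Capitals mark the cores on either strand, and all sequences run 5′ to 3′ along the gene. The NRF1 core can overlap its own reverse complement by all but 1 letter, which makes 8 capitals and counts on both strands.
Cycs (chr6:50566570-50566719, minus strand): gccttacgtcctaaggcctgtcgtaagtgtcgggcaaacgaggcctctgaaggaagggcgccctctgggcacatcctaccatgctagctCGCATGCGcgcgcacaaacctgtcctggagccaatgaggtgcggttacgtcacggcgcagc
Ndufaf4 (chr4:24897933-24898082, plus strand): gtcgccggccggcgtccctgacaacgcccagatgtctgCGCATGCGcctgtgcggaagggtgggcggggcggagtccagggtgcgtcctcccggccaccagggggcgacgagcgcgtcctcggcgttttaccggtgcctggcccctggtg
Atp5j (chr16:84834977-84835126, minus strand): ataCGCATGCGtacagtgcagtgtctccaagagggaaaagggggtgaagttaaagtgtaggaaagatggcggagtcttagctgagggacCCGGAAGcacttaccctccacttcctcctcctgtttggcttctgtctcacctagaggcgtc
Uqcrh (chr4:116075071-116075220, minus strand): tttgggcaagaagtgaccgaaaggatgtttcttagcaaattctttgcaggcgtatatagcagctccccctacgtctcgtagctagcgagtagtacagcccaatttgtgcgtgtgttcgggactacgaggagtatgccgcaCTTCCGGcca
Uqcr11 (chr10:80406822-80406971, minus strand): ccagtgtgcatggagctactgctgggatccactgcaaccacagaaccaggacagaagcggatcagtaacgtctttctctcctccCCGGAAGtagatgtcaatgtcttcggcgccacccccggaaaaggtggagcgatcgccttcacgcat

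The NRF1 core stands in the same 8-letter form in Cycs, Ndufaf4 and Atp5j. In hippocampus the log2 change was -0.54 for Cycs, 0.89 for Ndufaf4 and 0.23 for Atp5j, none past the threshold. These genes were shown because of their own values in these data, and the other members with this core were not compared. The ETS core of Uqcrh lies 10 bases before the start on the opposite strand, and that of Uqcr11 66 bases before it. Uqcr11 also holds an NRF1 core that spans its start and runs past the bases shown. A match of letters is a description of the sequence and does not show binding.

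Complex IV, cytochrome c oxidase, showed little difference in microglia. The 12 tested genes were split into 8 higher and 4 lower with a median of 0.08, and the summed level was 1348 ± 38.5 CPM in the young and 1374 ± 105 CPM in the old libraries (SD, n = 3). For 8 of the 12 the interval lay within 1 log2 unit of 0. Cox4i1, the regulatory subunit IV, was at 302, 239 and 218 CPM and then at 306, 247 and 237 CPM, nearly the same values. Cox5a, Cox6a1, Cox7a2 and Cox8a had changes of 0.10 ± 0.34, -0.24 ± 0.26, 0.22 ± 0.38 and 0.19 ± 0.26. Cox5b, which binds zinc, was at 146, 127 and 94.2 CPM and then at 68.8, 88.1 and 101 CPM, and the groups overlapped in 1 library each (-0.50 ± 0.29). Cox7a2l, known as a factor of supercomplexes of complexes III and IV, was at 130 ± 8.39 CPM and 135 ± 15.4 CPM (SD, n = 3). Whether it has that role in these mice was not tested.

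Cox7b was the 1 complex IV gene with separate groups in microglia. This small subunit, needed for assembly of the enzyme, was at 5.60, 42.8 and 37.0 CPM at 3 months and 59.9, 55.7 and 63.0 CPM at 24 months. All old libraries were higher, and the low first young library widened the error (1.07 ± 0.72, adjusted p = 0.990). Without that library the old values still lay above the other 2 young ones, with a change of 0.57.

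In hippocampus 10 of 17 tested complex IV genes were higher and 7 lower, with a median of 0.06. Cox5a was at 225, 201 and 229 normalized counts at 6 months and 305, 243 and 230 at 18 months. The old group started where the young one ended (0.24 ± 0.18, adjusted p = 0.917). Cox4i1 was at 991, 756 and 844 and then at 978, 1047 and 905, with overlap (0.18 ± 0.14). Cox6a1 was at 642, 455 and 600 and then at 628, 733 and 686, again with overlap (0.28 ± 0.16, adjusted p = 0.909). Cox5b and Cox8a were at 0.16 ± 0.15 and 0.06 ± 0.14, and Cox7a2 and Cox7a2l at -0.11 ± 0.18 and -0.23 ± 0.21.

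Tissue isoforms of complex IV subunits were nearly silent. In microglia Cox4i2, the lung and hypoxia form, made up at most 0.904% of the TPM (a level per transcript length) of Cox4i1 and Cox4i2 together. The muscle form Cox6a2 made up 0% to 2.60% of its pair and the muscle form Cox7a1 0% to 3.00%. The 2 libraries with the highest Cox6a2 shares held 52 and 61 estimated counts of it. Cox7b2, Cox8b and Ndufa4l2 were listed at 0 in all 6 libraries. In hippocampus Cox4i2 was at 3.25, 5.71 and 3.32 normalized counts at 6 months and 1.79, 1.04 and 2.36 at 18 months. The groups did not overlap, but at values this low the change of -0.90 ± 0.85 is poorly fixed (adjusted p = 0.928).

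Ndufa4, named for complex I but now counted as a complex IV subunit, is usually an abundant mRNA. Here it was listed at 0 estimated counts in all 6 microglia libraries and at 0, 5.54, 0, 6.92, 0 and 0 normalized counts in the hippocampus samples. It was tested in neither tissue. Only 3.4% of its 31-base words are shared with other genes of the GENCODE M21 annotation. Its level cannot be taken from these tables.

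Complex V, the ATP synthase, had a median of -0.03 in microglia with 7 of 16 tested genes higher and 9 lower. No gene of it had separate groups. Atp5b, the catalytic beta subunit, was at 469, 483 and 405 CPM at 3 months and 525, 469 and 457 CPM at 24 months. Its interval, from -0.30 to 0.49, was the narrowest of the members in that tissue. Atp5a1, the alpha subunit, was at 407, 352 and 355 CPM and then at 256, 381 and 411 CPM, with replicate 1 of the old group lowest (-0.09 ± 0.22). The summed level of complex V was 1983 ± 173 CPM and 2026 ± 145 CPM (SD, n = 3).

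The proton-conducting c ring is encoded by 3 genes whose mature proteins are the same. In microglia Atp5g1 gave 51.0% to 72.6% of their TPM, Atp5g3 gave 14.7% to 33.2% and Atp5g2 gave 7.35% to 19.5%. Atp5g1 was first in every library, and the shares of the young and old libraries overlapped. Their log2 changes were -0.16 ± 0.39 for Atp5g1, -0.02 ± 0.82 for Atp5g2 and -0.44 ± 0.61 for Atp5g3.

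In hippocampus complex V leaned upward, with 12 genes higher, 4 lower and a median of 0.16. All 5 genes of its F1 head had a higher mean at 18 months. The summed level was 6675 ± 61.7 normalized counts at 6 months and 7014 ± 297 at 18 months (SD, n = 3), a ratio of 1.05 with no overlap between groups. As a share of each sample's total the groups did overlap. That share was 0.666%, 0.669% and 0.679% at 6 months and 0.700%, 0.755% and 0.678% at 18 months. Without replicate 2 of either age the median was 0.07 or 0.08. Atp5a1 was at 873, 971 and 1044 normalized counts and then at 1078, 1152 and 1140. All old samples lay above all young ones, and the young ones differed among themselves by as much (0.23 ± 0.13, adjusted p = 0.909). Atp5b, with the highest normalized counts of all members, was at 2081, 2279 and 2215 and then at 2211, 2496 and 1944, with full overlap (0.01 ± 0.12).

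Of the other complex V genes, Atp5j and Atp5g3 had separate groups in hippocampus. Atp5j, coupling factor 6 of the peripheral stalk, was at 401, 328 and 397 normalized counts at 6 months and 497, 408 and 413 at 18 months. The gap between the groups was small beside their spread (0.23 ± 0.16, adjusted p = 0.913). Atp5g3 was at 193, 219 and 196 and then at 163, 178 and 179, lower in all old samples (-0.22 ± 0.18, adjusted p = 0.918). Atp5g1 was at 0.16 ± 0.15, and Atp5g2 was listed at 95.7, 0 and 56.4 and then at 76.1, 37.0 and 33.4.

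Choroid plexus tissue, rich in mitochondria, was unequally present in the hippocampus samples. The 5 choroid plexus markers summed to 113, 6880 and 2287 normalized counts at 6 months and 3505, 10840 and 238 at 18 months. Ttr alone gave 6590 in replicate 2 of the 6 month group and 10460 in replicate 2 of the 18 month group. Folr1 and Clic6 were also higher in the latter, whereas Kl (121.7 and 119.3) and Kcnj13 (93.4 and 89.4) were slightly higher in the former. Replicate 2 of the 18 month group, with the most, was the sample in which 28 of 91 members stood highest and 21 lowest. Replicate 2 of the 6 month group, with the next most, held the lowest value of 34 members and the highest of 7. Without that young sample 43 members were higher and 46 lower, in place of 55 and 36. Without replicate 2 of the 18 month group the split was 54 higher and 36 lower. The part of choroid plexus RNA in the members' values was not tested.

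Levels were compared between genes only in microglia, where TPM corrects for length. A total of 66 of 97 members had a mean above 100 TPM. The highest was Cox4i1 of complex IV at 592 TPM. Ndufa3 led complex I at 588 TPM and Uqcr11 led complex III at 535 TPM. Atp5b led complex V at 399 TPM, and Sdhb led complex II at 386 TPM with Sdhc lowest at 141 TPM. Cyc1 was the lowest of complex III at 95.0 TPM, and Cycs stood at 33.9 TPM. Complex I core and accessory subunits had near medians, 183.4 and 189.8 TPM, whereas its assembly factors had a median of 32.1 TPM.

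**Figure D5:**
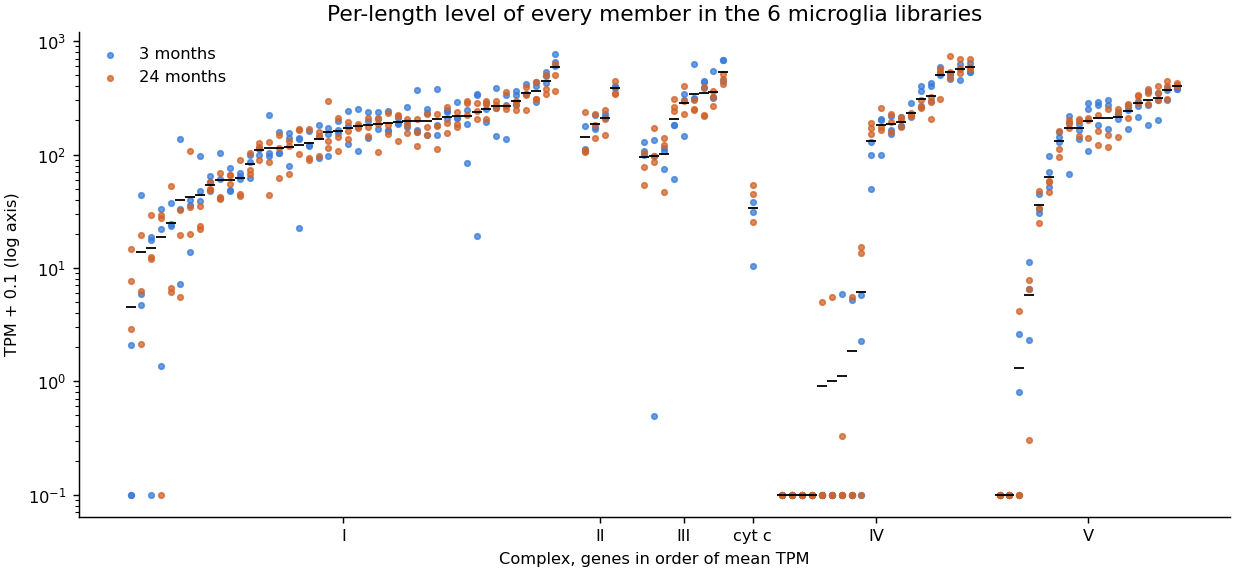
TPM + 0.1 (log axis) of every member in the 6 microglia libraries, with genes ordered by mean TPM inside each complex; blue points are 3 month and orange points 24 month libraries, and dashes are means. Most subunits lie between 100 and 600 TPM at both ages, while assembly factors and tissue isoforms form the low tails and points at the bottom are listed at 0.

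The tissues were set side by side without a test, since they came from separately scaled tables and other ages. Of the 86 members tested in both, 35 (40.7%) had the same sign of change, against 47.4% of all 9783 genes tested in both. A total of 34 were lower in old microglia and higher in old hippocampus, 17 the other way round, 18 higher in both and 17 lower in both. Uqcrc1, for example, was at -0.57 ± 0.25 and 0.01 ± 0.14, and Cycs at 0.62 ± 0.56 and -0.54 ± 0.22. Uqcr11, at -0.44 ± 0.28 and -0.27 ± 0.16, was 1 of the 17 lower in both.

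The mitochondrially encoded partners of these subunits did not follow them. In microglia all 13 mitochondrial mRNAs had a higher mean at 24 months, 11 of them at an unadjusted p under 0.05, where 3.52% of all genes were higher at that p. None passed after adjustment with edgeR, and their median change was 1.65. Of the 13, only mt-Nd5 passes in the authors' deposited table, with an adjusted p of 0.000685. The sum of the 97 nuclear genes was 8826 ± 435 CPM and 8393 ± 892 CPM (SD, n = 3). The ratio of the nuclear to the mitochondrial sum was 2.94, 3.68 and 3.07 at 3 months and 0.992, 0.821 and 2.76 at 24 months. Replicate 3 of the old group lay near the young libraries. In hippocampus 12 of the 13 were lower at 18 months, 5 at an unadjusted p under 0.05, where 3.24% of all genes were lower at that p. None passed after adjustment with limma, and the median was -0.37. The nuclear sum was 22238 ± 1058 and 23030 ± 527 normalized counts, and the ratio was 0.294, 0.332 and 0.320 and then 0.392, 0.611 and 0.331. The nuclear members together made up 0.729% to 0.914% of the scaled library in microglia and the mitochondrial mRNAs 0.249% to 0.888%.

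Other nuclear genes of the pathway gave no call either. Of 36 further assembly factors, 32 were tested in microglia (11 higher, 21 lower, median -0.26) and 34 in hippocampus (17 higher, 17 lower, median 0.01). In microglia 3 of the 32 were separate and higher and 2 separate and lower, and in hippocampus 1 of the 34 was higher and 2 lower, where 13.4% and 11.0% of all genes were separate. Coa3, a complex IV assembly factor with the lowest unadjusted p of that list in microglia, was at 121, 119 and 110 CPM at 3 months and 63.6, 79.6 and 89.9 CPM at 24 months in microglia. The groups were separate (-0.58 ± 0.26, edgeR, unadjusted p = 0.0541, adjusted p = 0.899). Of 12 transcriptional regulators, 10 were tested in microglia (4 higher, 6 lower) and 12 in hippocampus (5 higher, 7 lower). In each tissue 1 was separate and higher and 1 separate and lower. Polrmt, the mitochondrial RNA polymerase, was at 115, 47.4 and 75.9 CPM and then at 46.1, 23.8 and 30.8 CPM in microglia, lower in all old libraries (-1.25 ± 0.48, edgeR, unadjusted p = 0.0332, adjusted p = 0.871). Nrf1, which encodes the factor whose motif was searched above, was at 30.3, 32.2 and 26.9 normalized counts and then at 46.7, 44.7 and 38.3 in hippocampus, higher in all old samples (0.52 ± 0.38, adjusted p = 0.917). Its groups overlapped in microglia (-0.17 ± 0.35). Esrra, the nuclear receptor that drives many of these genes, was at 21.7, 27.9 and 18.9 normalized counts at 6 months and 4.39, 4.63 and 6.64 at 18 months in hippocampus. All old samples were below the young ones, and the change did not pass after adjustment over all genes (-1.94 ± 0.69, limma, unadjusted p = 0.0142, adjusted p = 0.877). In microglia Esrra was at 0.746, 9.10 and 4.49 CPM and then at 14.3, 11.2 and 15.9 CPM, higher in all old libraries (1.53 ± 1.19, adjusted p = 0.993). Of 7 carriers and uncoupling proteins, 6 were higher in old microglia and 4 in old hippocampus, none past the threshold.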

How the data were processed

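Tools given in the submitters' processing notes are kallisto, DESeq2 and DESeq, with the builds GRCm39 and mm10, without versions or roles. For microglia the authors deposited estimated counts, TPM and average transcript lengths, per the file headers. For both tissues the authors deposited tables of normalized counts (a signal scaled between samples), log2 changes with errors, a Wald statistic (a score), p-values and adjusted p-values, used here only where named as theirs. Rounded estimated counts were tested with edgeR 4.0.16 (quasi-likelihood, TMM, filterByExpr, 10663 genes) in R 4.3.3. The hippocampus table has no counts, so log2(normalized count + 1) of 13491 genes at 1 or more in at least 3 samples was tested with limma 3.58.1 (mean trend). On that scale a fold change understates the change of low genes, except that values listed at 0 can enlarge it (Ndufa9, Atp5s, Atp5g2).

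Tests were two-sided and adjusted (Benjamini-Hochberg) over all genes, at 0.05. The fits were also run on simulated data with a fixed spread per tissue and no outlying library. That run therefore does not cover the libraries that stood apart. Log2 changes are older minus younger, with the deposited hippocampus log2 values turned to that direction. Rows without a gene name (at most 0.0771% of counts) were left out. Alternatives covered test, scaling, filter, pseudocount, transcript length, replicate block and each library left out. The members and lists were chosen with earlier results of these data known. Named were a list of central subunits, the members with separate age groups (up to 3 per complex and direction) and the highest and lowest TPM of each complex. Other genes were chosen after their values were seen, and 1 gene of the list is not reported here. Of 96 members found in GENCODE M21, 33 shared over 10% of their 31-base words with other genes, and strand was not recorded in the labels, so copies and antisense partners could not be told apart.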

Additional observations from a re-analysis of the deposited data

Results flagged for a closer look

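Signal from genes outside the tested set appeared in replicate 3 of the 24 month microglia. Cox6b2, the testis form of a complex IV subunit, had 11 estimated counts there, and Cox8c, another testis form, had 13. Both were listed at 0 in all 3 libraries at 3 months and in the other 2 libraries at 24 months. A single library carries each value.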

How the results depend on the processing

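No alternative called a member in either tissue. Over all genes, the microglia comparison called 0 genes with edgeR, 251 with DESeq2 and 243 in the authors' deposited table, and 0 to 55 when 1 library was left out, with 55 without replicate 3 of the 24 month group. The hippocampus comparison called 0 genes with limma, 36 in the authors' deposited table, and 0 to 1 when 1 sample was left out, with 1 without replicate 1 of the 6 month group. The cause of these differences was not tested. The median change of the members ran from -0.14 to -0.03 in microglia and from -0.01 to 0.09 in hippocampus when 1 library was left out. The split of members was 27 higher and 59 lower in microglia with limma-voom and sample weights. With limma-voom the median of complex IV in microglia was -0.02, and it was -0.07 without replicate 1 of the 24 month group. Same-numbered samples did not deviate together (r of -0.027 to 0.065 in microglia and 0.009 to 0.014 in hippocampus). With the replicate block 0 members and 0 genes were called in either tissue, and the medians were -0.10 and 0.04. Depth is unknown in hippocampus, and with 3 samples a group only 33 of 86 microglia members were bounded within 2-fold.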
